A study of Mus musculus with 4 samples.

Results

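The genes Foxp3, Ikzf2, Ikzf4, Lrrc32, Nrp1 and Gpr83, all known from regulatory T cells, were followed across 4 subsets of sorted CD8 T cells. Every non-control probe whose RefSeq accession maps to one of these genes was taken, which gave 11 probes for 6 genes out of 22909 genes named on the array. P4 was CD44low CD62Llow, P3 was CD44high CD62Llow, P2 was CD44high CD62Lhigh and P1 was CD44low CD62Lhigh. All 4 subsets came from spleen and lymph node of untreated PD-1-/- mice on the C57BL/6 background, aged 1 to 3 months, so every subset lacked the inhibitory receptor PD-1 and no wild type group is analysed here. How the sort was gated beyond CD44 and CD62L, and how many animals were pooled, the sources used here do not say. CD44 is an adhesion receptor that T cells carry at high density once activated, and CD62L is the selectin that brings T cells into lymph nodes. Naive cells have the P1 phenotype, central memory cells that of P2 and effector memory cells that of P3.

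Regulatory T cells are mostly CD4 cells that restrain immune responses, and they depend on the forkhead factor Foxp3 to keep their identity. Helios (Ikzf2) and Eos (Ikzf4) are zinc finger factors of the Ikaros family, and Eos partners Foxp3 in repressing genes. GARP (Lrrc32) tethers latent TGF-beta to the cell surface, neuropilin-1 (Nrp1) is a coreceptor for semaphorins and vascular growth factors, and Gpr83 is a G protein-coupled receptor found on regulatory T cells and in the brain. CD8 T cells can also carry some of these products, Helios and Foxp3 among them.

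With 1 single-colour array per subset, differences between subsets have no replicates behind them and none was tested. Differences were described by size, with 2-fold as the threshold, beside the share of all measured genes past it. A level is the log2 processed signal of a probe minus the 75th percentile over all probes of its array, which was 315 signal units in P4, 550.1 in P3, 332 in P2 and 333 in P1. Between 27825 and 30804 of the probes were well above background on an array. Repeated spots of a probe gave a log2 difference a 95% half-width of 0.18 at levels of 0 or more, 0.37 at levels from -3 to 0 and 0.62 below -3. They say nothing of how mice, sorts or labelling reactions vary. All 4 arrays shared 1 slide, where each position held a different subset, and position and subset cannot be told apart. The brightest probe of each of the 6 genes was well above background on all 4 arrays.

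The stretches just upstream of the annotated starts are shown for the 3 genes of the 6 that had a window in the RefSeq promoter table of build GRCm38.p6: Foxp3, which carries 2 annotated starts, and Gpr83 and Nrp1, whose patterns over the subsets lay furthest apart. Each window is the 250 bases upstream of a start on the plus strand, at chrX:7579426-7579675 and chrX:7580233-7580482 for Foxp3, chr9:14859960-14860209 for Gpr83 and chr8:128358823-128359072 for Nrp1. Capitals mark matches to 4 motifs searched on both strands: the Ikaros family core TGGGAA, the RUNX core TGTGGT, the forkhead core GTAAACA and the STAT core TTCNNNGAA.
Foxp3, upstream start: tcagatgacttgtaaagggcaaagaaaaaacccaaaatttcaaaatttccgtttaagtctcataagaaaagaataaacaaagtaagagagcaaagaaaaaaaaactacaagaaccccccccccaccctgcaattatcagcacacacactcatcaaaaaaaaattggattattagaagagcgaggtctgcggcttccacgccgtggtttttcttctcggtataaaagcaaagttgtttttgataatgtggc
Foxp3, downstream start: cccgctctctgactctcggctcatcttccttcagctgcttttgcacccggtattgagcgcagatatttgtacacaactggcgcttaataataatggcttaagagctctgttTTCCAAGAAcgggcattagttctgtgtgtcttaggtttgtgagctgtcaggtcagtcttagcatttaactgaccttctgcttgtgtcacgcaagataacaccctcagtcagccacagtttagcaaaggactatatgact
Gpr83: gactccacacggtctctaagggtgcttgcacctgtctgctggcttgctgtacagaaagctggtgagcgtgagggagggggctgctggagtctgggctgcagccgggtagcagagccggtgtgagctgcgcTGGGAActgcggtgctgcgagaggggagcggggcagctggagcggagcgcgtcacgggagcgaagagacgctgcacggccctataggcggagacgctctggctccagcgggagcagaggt
Nrp1: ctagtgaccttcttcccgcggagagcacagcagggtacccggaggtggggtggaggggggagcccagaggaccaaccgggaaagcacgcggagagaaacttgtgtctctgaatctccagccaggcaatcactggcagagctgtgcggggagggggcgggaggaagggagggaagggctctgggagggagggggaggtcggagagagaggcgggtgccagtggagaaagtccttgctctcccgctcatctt
The window of the downstream Foxp3 start held 1 STAT core, the Gpr83 window held 1 Ikaros family core, and the other windows held 0 matches. Among 32851 such windows, 21.6% held TGGGAA, 14.0% TGTGGT, 3.17% GTAAACA and 7.02% TTCNNNGAA. The GC content was 37.6% and 46% in the Foxp3 windows, 66.8% for Gpr83 and 64.4% for Nrp1, against a median of 52.4% over all windows. CpG dinucleotides numbered 6 and 7 in the Foxp3 windows, 18 for Gpr83 and 11 for Nrp1, with a median of 6. A match is a description of these letters only.

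Foxp3 transcript was dim in every subset and was brightest in P3. Its probe gave a processed signal of 80.3 ± 8.70 in P4, 269 ± 27.2 in P3, 34.4 ± 5.37 in P2 and 42.5 ± 5.76 in P1, where the error is the one that the extraction software gives for the spot. The levels were -1.97 in P4, -1.03 in P3, -3.27 in P2 and -2.97 in P1. Both CD62Llow subsets thus lay above both CD62Lhigh subsets. P3 was 4.73-fold above P2 and 3.83-fold above P1, and P4 was 2.46-fold above P2. With normexp background correction the log2 differences were 1.21, 1.02 and 0.73 in place of 2.24, 1.94 and 1.30, so that P4 minus P2 fell short of 2-fold. P4 minus P1 came to 0.997 on the log2 scale, just short of 2-fold. P4 was 0.94 below P3, while P2 and P1 lay 0.30 apart, within the spot noise at that level. Every Foxp3 level stood above the lowest signal called well above background, which was at -4.30 in P4, -4.82 in P3, -4.05 in P2 and -4.14 in P1.

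Ikzf2, which encodes Helios, was higher in the CD62Llow subsets and showed a step between P2 and P1 as well. Its processed signal was 1426 ± 143 in P4, 2306 ± 231 in P3, 567 ± 56.9 in P2 and 239.8 ± 24.3 in P1. After scaling to each array, the levels were 2.18 in P4, 2.07 in P3, 0.77 in P2 and -0.47 in P1. P4 and P3 lay 0.11 apart, within the spot noise, and every other pair was at least 2-fold apart. P4 was 6.29-fold above P1 and 2.65-fold above P2. P3 was higher than P1 by 2.54 and than P2 by 1.30 on the log2 scale, and P2 was higher than P1 by 1.25. Ikzf2 was the only one of the 6 genes at least 2-fold higher in P2 than in P1.

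Ikzf4, which encodes Eos, was lowest in P2. Its brightest probe had levels of 0.82 in P4, 0.69 in P3, -1.51 in P2 and -0.03 in P1, and P4 and P3 differed by less than the spot noise. P4 was 5.02-fold above P2 and P3 was 4.59-fold above P2, whereas P2 was 2.79-fold below P1. The differences from P1 were 0.85 for P4 and 0.72 for P3, both short of 2-fold. The probe next in brightness had levels of 0.51 in P4, 0.48 in P3, -1.64 in P2 and -0.47 in P1 and gave 0.98 for P4 minus P1 and 2.15 for P4 minus P2. A dimmer probe was well above background only in P3, at -3.40, and in P1, at -3.81. Its P4 minus P1 was -0.37, opposite in sign to both brighter probes but within the spot noise of 0.62. The last Ikzf4 probe was not well above background on any array. With the mean over all Ikzf4 probes, P4 minus P2 was 0.996, P3 minus P2 1.02 and P2 minus P1 -0.67. That mean includes both dimmer probes, neither of which was well above background in P4 or P2.

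Among the surface molecules, Lrrc32 was higher in the CD62Llow subsets. The GARP probe gave a signal of 221 ± 22.4 in P4, 826 ± 82.7 in P3, 44.5 ± 6.14 in P2 and 29.6 ± 4.96 in P1, or levels of -0.51 in P4, 0.59 in P3, -2.90 in P2 and -3.49 in P1. The gap between the lower CD62Llow level and the higher CD62Lhigh level was 2.39. P4 was 7.90-fold above P1 and 5.23-fold above P2, and P3 was 16.9-fold above P1 and 11.2-fold above P2. With normexp background correction these log2 differences came to 1.69, 1.44, 2.61 and 2.35 in place of 2.98, 2.39, 4.08 and 3.49. P4 was 2.14-fold below P3, a difference that fell short of 2-fold with normexp (-0.92). P2 and P1 lay 0.59 apart, within the spot noise for signals this dim.

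Nrp1 had its highest level in P3, and its P3 minus P1 and P3 minus P2 differences were the largest of the 6 genes. Its brightest probe gave a signal of 537 ± 53.8 in P4, 5378 ± 538 in P3, 159 ± 16.5 in P2 and 106 ± 11.3 in P1. The levels were 0.77 in P4, 3.29 in P3, -1.06 in P2 and -1.66 in P1. P3 was 30.8-fold above P1 and 20.4-fold above P2, and P4 was 5.37-fold above P1 and 3.55-fold above P2. P4 was 5.74-fold below P3. The P2 and P1 spots of this probe lay among neighbouring spots that were raised on the same array, and the part of local brightness in these CD62Lhigh levels was not tested. The 0.60 between P2 and P1 rests on both of those spots.

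The spots of the other Nrp1 probes lay outside such areas. The next brightest probe gave the same order of subsets, with levels of -1.51 in P4, 1.11 in P3 and -2.95 in P2 and a signal not well above background in P1. By this probe P4 was at least 6.18-fold above P1 and 2.72-fold above P2, and P3 was at least 38.0-fold above P1. The dimmest Nrp1 probe was well above background only in P4, at -4.08, and in P3, at -1.26. It placed P4 7.07-fold below P3, and P3 at least 7.34-fold above P1 and at least 6.92-fold above P2, and it gave no order of P4 against P2 or of P2 against P1. The mean over the 3 probes was 1.70 for P4 minus P1, 1.08 for P4 minus P2, 4.36 for P3 minus P1 and 3.73 for P3 minus P2. It includes the P1 values of both dimmer probes and the P2 value of the dimmest. None of these was well above background, and each was raised to the lowest signal called so.

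Gpr83 followed another pattern, high in both CD44low subsets. Its signal was 961 ± 96.2 in P4, 283 ± 28.6 in P3, 76.1 ± 8.58 in P2 and 875 ± 87.6 in P1, and its levels were 1.61 in P4, -0.96 in P3, -2.13 in P2 and 1.39 in P1. P4 was 13.3-fold above P2 and 5.92-fold above P3. P3 was 5.10-fold below P1 and 2.25-fold above P2. With normexp background correction P4 minus P2 was 3.01 in place of 3.74, P2 minus P1 -2.79 in place of -3.52, and P3 minus P2 0.72, short of 2-fold. P4 and P1 lay 0.22 apart, slightly more than the spot noise of 0.18.

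**Figure D1:**
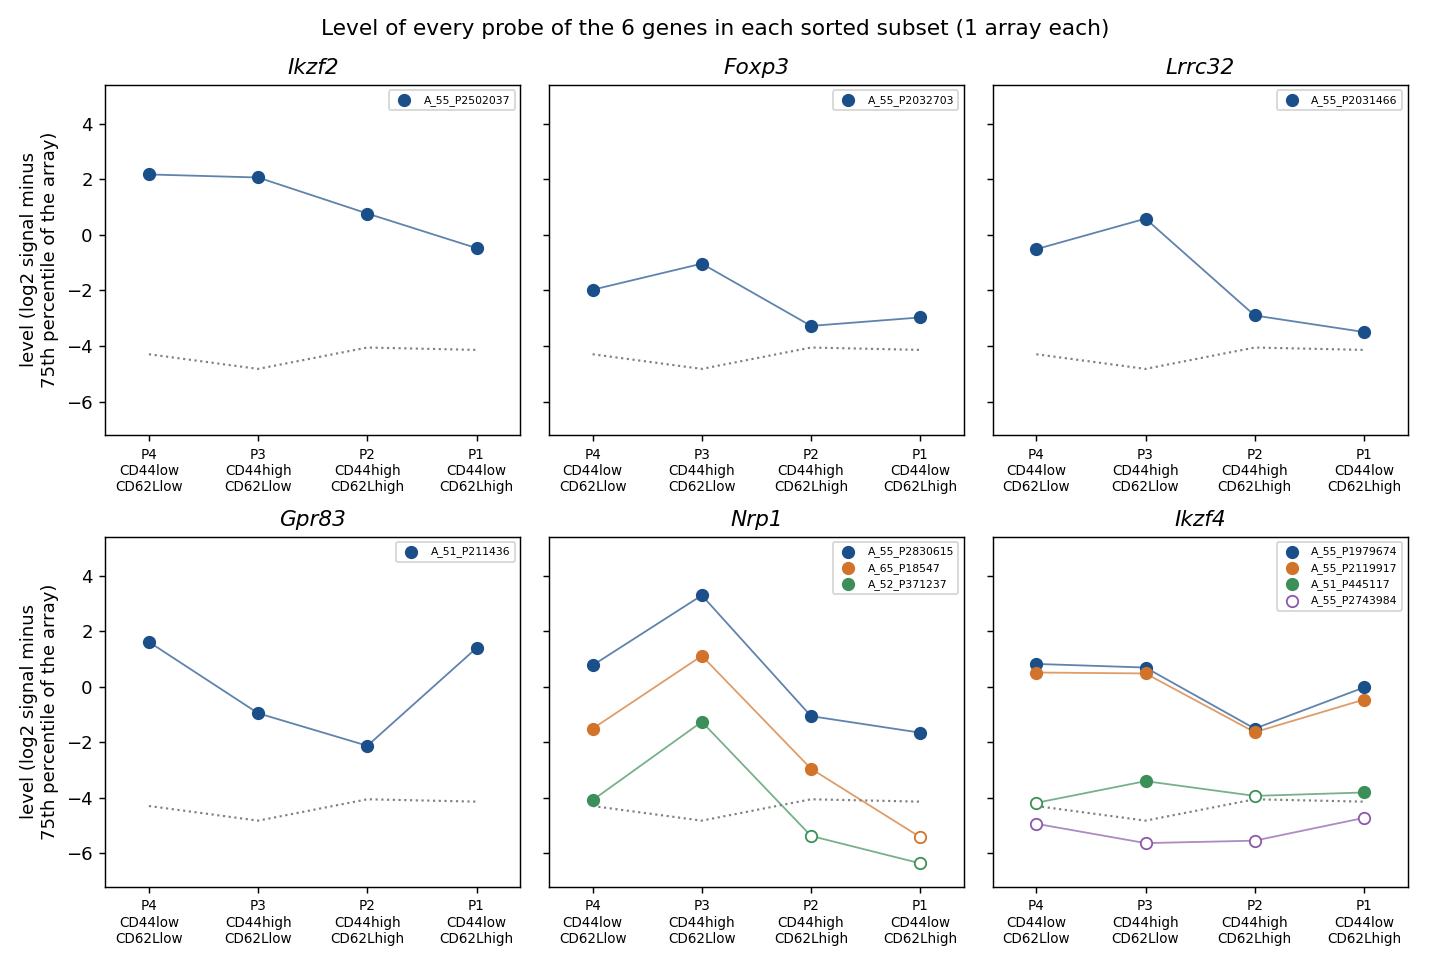
Level of each of the 11 probes in P4, P3, P2 and P1 (log2 signal minus the 75th percentile of the array), 1 array each, with filled points well above background, open points not, and the dotted line at the lowest signal well above background. Foxp3, Ikzf2, Lrrc32, Nrp1 and the brightest probe of Ikzf4 were higher in P4 and P3 than in P2 and P1, while Gpr83 was high in P4 (1.61) and P1 (1.39).

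P4 shares its low CD44 with P1 and its low CD62L with P3, and each of the 6 genes was set against both neighbours and P2. Against P1, P4 was at least 2-fold higher in Ikzf2, Lrrc32 and Nrp1 and lower in 0 of 6, beside 7.2% of 13160 measured genes past 2-fold, 5.43% higher and 1.77% lower. Against P2, 6 of 6 were higher in P4 and 0 lower, beside 8.24% of all measured genes past 2-fold, 4.78% higher and 3.45% lower. Against P3, Gpr83 was higher in P4 and Lrrc32 and Nrp1 were lower, beside 13% of all measured genes past 2-fold, 3.98% higher and 9.06% lower. The median differences of the 6 genes were 1.71 for P4 minus P1, 2.08 for P4 minus P2 and -0.41 for P4 minus P3, and medians over all measured genes lay between -0.09 and 0.01 over the 6 pairs of subsets. These comparisons share arrays and are not independent of each other.

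In the pairs without P4, most of the 6 genes were highest in P3. P3 exceeded P1 at least 2-fold in Ikzf2, Foxp3, Lrrc32 and Nrp1 and was lower in Gpr83, beside 19.5% of all measured genes past 2-fold, 12.5% higher and 6.98% lower. P3 exceeded P2 in 6 of 6 genes, beside 16.2% of all measured genes past 2-fold, 10.6% higher and 5.61% lower. P2 exceeded P1 in Ikzf2 and was lower in Gpr83 and Ikzf4, beside 7.28% of all measured genes past 2-fold, 4.75% higher and 2.52% lower. The median differences of the 6 genes were 2.24 for P3 minus P1, 2.22 for P3 minus P2 and 0.15 for P2 minus P1.

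**Figure D2:**
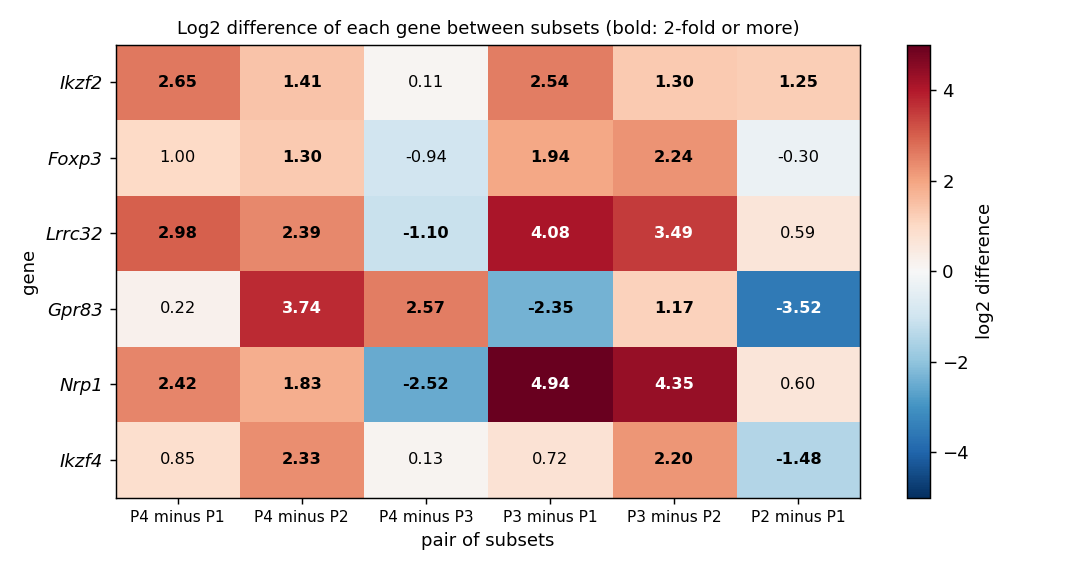
Log2 difference of each gene between 2 subsets for all 6 pairs, by the brightest probe of the gene, in bold where 2-fold or more. P4 exceeded P2 at least 2-fold in all 6 genes, while the Foxp3 value printed as 1.00 for P4 minus P1 is 0.997 and stays in plain type.

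The design crosses CD44 with CD62L, so the difference between CD62Llow and CD62Lhigh cells can be read within each CD44 class. Among CD44low cells it is P4 minus P1 and among CD44high cells P3 minus P2. All 6 genes were positive in both, with values between 0.22 and 2.98 among CD44low cells and between 1.17 and 4.35 among CD44high cells. Ikzf2 had the larger difference among CD44low cells (2.65 against 1.30 among CD44high cells), and the other 5 had the larger one among CD44high cells. The gap between the CD44high and the CD44low difference was -1.36 for Ikzf2, 1.24 for Foxp3, 0.50 for Lrrc32, 0.95 for Gpr83, 1.92 for Nrp1 and 1.35 for Ikzf4. With 1 array per subset this interaction was not tested.

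Both CD62Llow subsets were at least 2-fold above both CD62Lhigh subsets for Ikzf2, Lrrc32 and Nrp1. This held for 332 of 14357 genes on the array, or 2.31%, a count added after the levels were seen. Foxp3 missed it through the 0.997 of P4 minus P1 and Ikzf4 through the 0.72 of P3 minus P1. Gpr83 instead had both CD44low subsets at least 2-fold above both CD44high subsets, as did 62 of 14357 genes, or 0.432%.

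**Figure D3:**
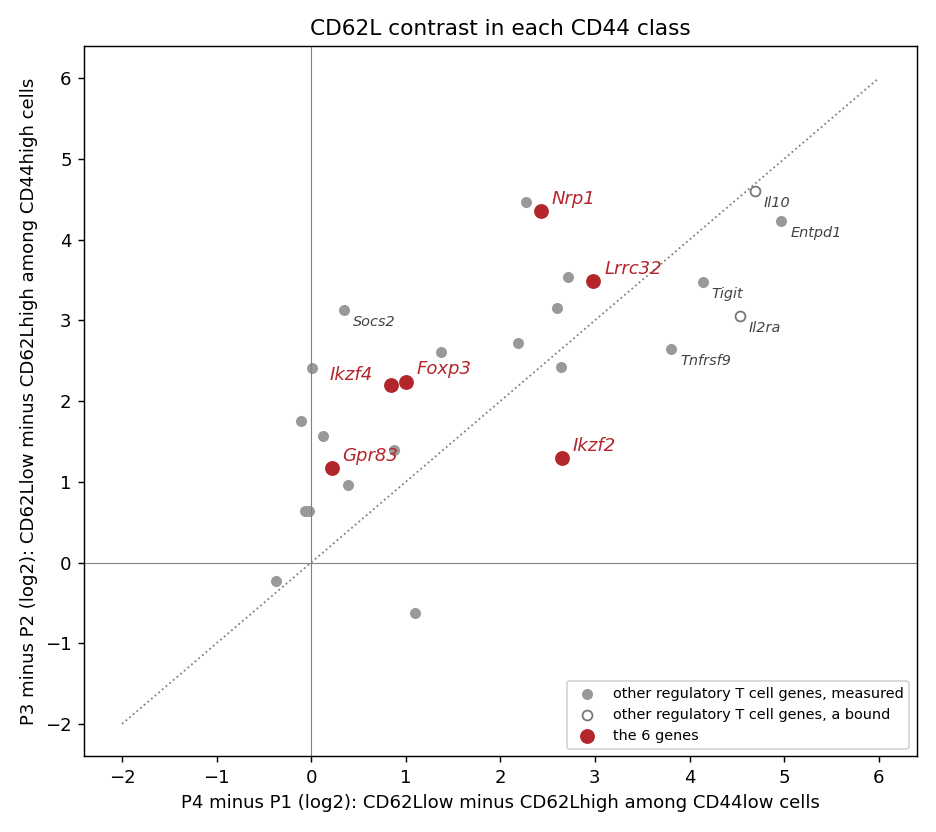
Difference between CD62Llow and CD62Lhigh cells (log2) among CD44low cells (P4 minus P1, horizontal) and CD44high cells (P3 minus P2, vertical), for the 6 genes in red and other regulatory T cell genes in grey, with bounds open and equality dotted. Ikzf2 lies below the dotted line and the other 5 genes above it.

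Markers of other cells differed between the subsets, most of all in P3. Summed over a marker list, in multiples of the 75th percentile of the array, CD8 T cell genes stood at 773 in P4, 683 in P3, 745 in P2 and 897 in P1, with 7 of 7 above background in each. The CD4 T cell list of Cd4, Zbtb7b and Cd40lg summed to 1.38 in P4, 2.64 in P3, 1.32 in P2 and 1.12 in P1. The Cd4 probe lay at 0.13 in P4, 0.76 in P3, 0.15 in P2 and 0.13 in P1, and its other probe was not well above background on any array. Zbtb7b, the factor that sets the CD4 lineage, lay at -1.87 in P4, -0.10 in P3 and -2.34 in P2 and was not well above background in P1, which puts P4 at least 4.83-fold above P1. Cd40lg was not well above background anywhere. Because the arrays read bulk RNA, fewer cells of a type and less RNA per cell cannot be told apart.

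Genes of antigen-presenting cells were high in P3. Class II and type 2 dendritic cell genes summed to 10.7 in P4, 312 in P3, 10.03 in P2 and 2.81 in P1, with 5 of 7 above background in P4, 7 in P3, 5 in P2 and 3 in P1. Type 1 dendritic cell genes summed to 2.33 in P4, 43.9 in P3, 4.05 in P2 and 0.84 in P1, with 4 of 7 above background in P4, 7 in P3, 5 in P2 and 2 in P1. Of their defining genes, Xcr1 stood at -3.25 and Clec9a at 1.09 in P3, and neither was well above background in P4, P2 or P1. Macrophage and monocyte genes summed to 4.20 in P4, 41.3 in P3, 4.77 in P2 and 3.57 in P1, with 4 of 10 above background in P4, 9 in P3, 5 in P2 and 2 in P1. Plasmacytoid dendritic cell genes, which include Siglech, summed to 121 in P4, 106 in P3, 104 in P2 and 119 in P1, with 8 of 9 above background in P4, 9 in P3, 7 in P2 and 7 in P1. In P4, P2 and P1 that sum rests largely on the Siglech probe. In P3 it does not, as Irf8 at 4.90 and Bst2 at 4.48 stood beside Siglech at 4.88, and most of the other genes were higher in P3. In P3 minus P1, 6 of 9 (Cox6a2, Spib, Ly6d, Klk1, Irf8 and Tcf4) were at least 2-fold higher and Ccr9 and Siglech lower, with a median of 3.73. The values of Spib and Klk1 are bounds, as neither gene was well above background in P1. Of all measured genes, 12.5% were higher and 6.98% lower in that pair. Cox6a2 was 5.90 higher and Tcf4, a factor that specifies these cells, 3.65 higher in P3 than in P1. In P4 minus P1, 1 of 8 measured, Irf8, was past 2-fold (median 0.43), beside 7.2% of all measured genes. The P1 spot of Irf8 lay among raised neighbours. In P4 minus P3, 2 of 9 were higher and 6 lower (median -3.18), beside 3.98% and 9.06% of all measured genes. The bright Siglech probe stood at 6.15 in P4, 4.88 in P3, 6.30 in P2 and 6.12 in P1, and the other Siglech probe was well above background only in P3, at -0.95.

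Nrp1 is also carried by some dendritic cells and by endothelium, and GARP also by platelets and endothelium. Endothelial genes summed to 0.98 in P4, 1.32 in P3, 0.82 in P2 and 1.19 in P1, and 4 of 8 were above background in P3 against 1 of 8 in each other subset. Platelet genes summed to 3.29 in P4, 3.59 in P3, 4.87 in P2 and 3.49 in P1, and Pf4 and Ppbp were well above background in P3 alone. B cell genes summed to 6.50 in P4, 10.9 in P3, 6.45 in P2 and 7.57 in P1, and erythroid genes to 0.55 in P4, 7.29 in P3, 0.42 in P2 and 0.22 in P1. Natural killer cell genes, some of which cytotoxic CD8 cells also express, summed to 52.6 in P4, 93.5 in P3, 79.9 in P2 and 50.03 in P1, a sum dominated by Klrd1. In P4 minus P1, 5 of 6 measured were at least 2-fold higher and 0 lower (median 2.98), beside 5.43% and 1.77% of all measured genes. For 3 of the 5, Klrb1c, Tyrobp and Klre1, the value is a bound, as they were not well above background in P1. Those 3 could only be counted as higher. Among the 5 were the signalling adaptor genes Fcer1g at 4.64 and Tyrobp at a bound of 3.55. In P4 minus P2, 0 of 6 were higher and 1 lower (median -0.53), beside 4.78% and 3.45%. Ncr1, the defining receptor gene of natural killer cells, was not well above background on any array. The part of these cells in the levels of the 6 genes was not tested.

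**Figure D4:**
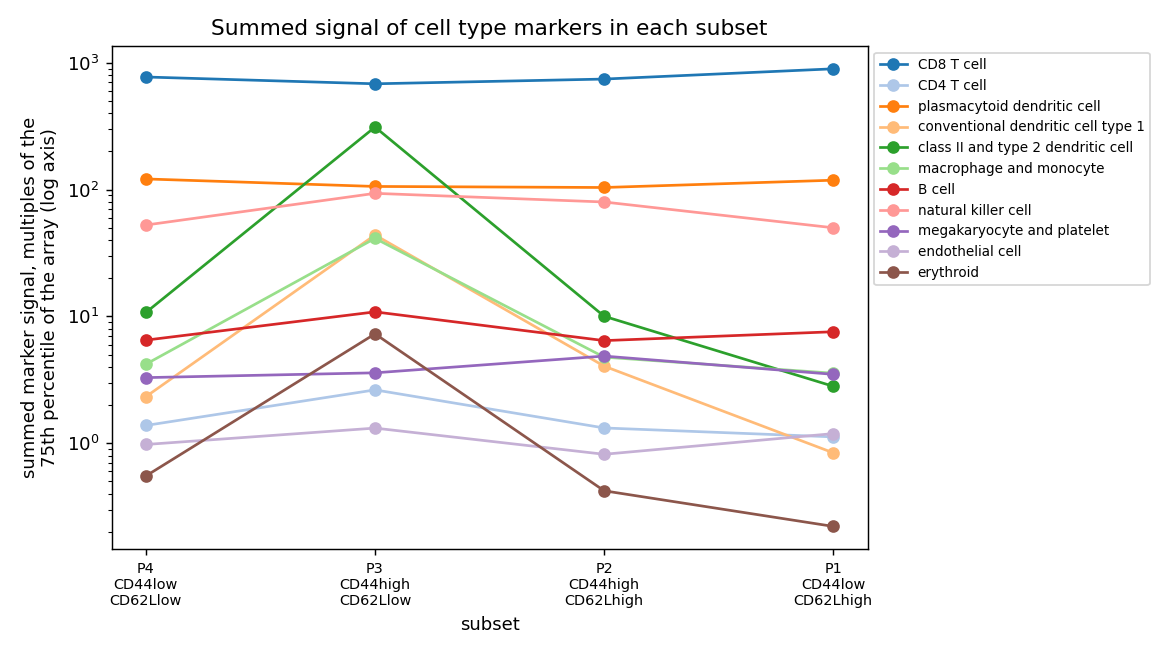
Summed signal of 11 lists of cell type markers in P4, P3, P2 and P1, in multiples of the 75th percentile of the array on a log axis, 1 array each, every marker included. The class II and type 2, type 1 dendritic cell, macrophage and erythroid lists were highest in P3 (312 for class II), the plasmacytoid list stayed between 104 and 121, and the CD8 T cell list between 683 and 897.

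More than 1 in 2 of the measured other genes of the regulatory T cell signature passed 2-fold upward in P4 against each CD62Lhigh subset. The list was chosen with earlier results of these data known. Against P1, 12 of 21 measured genes were past 2-fold upward in P4 and 0 downward (median 1.37), beside 5.43% and 1.77% of all measured genes. Of 22 measured against P2, 13 were higher and 2 lower (median 1.36), beside 4.78% and 3.45%. Of 25 against P3, 1 was higher and 11 lower (median -0.95), beside 3.98% and 9.06%. P3 exceeded P1 in 20 of 25, beside 12.5%, and P2 in 19 of 25, beside 10.6%. Bounds made up 2 of the values in P4 minus P1, 2 in P4 minus P2 and 4 in P4 minus P3. They made up 6 in P3 minus P1 and 4 in P3 minus P2. A bound can only point toward the subset where the gene was well above background, so the filter set its direction. Ccr8, Il1rl1 and Areg were well above background in P3 alone. P3 also had the highest class II and type 2 dendritic cell sum (312), and the part of such cells in these counts was not tested. Icos, Tnfrsf18 and Tnfrsf4, receptor genes of activated T cells, were within 2-fold of P1 and of P2 in P4. Of the 25, 11 genes, namely Il2ra, Ctla4, Tnfrsf9, Entpd1, Il10, Fgl2, Prdm1, Plagl1, Cd83, Swap70 and Tigit, had both CD62Llow subsets at least 2-fold above both CD62Lhigh subsets, as Ikzf2, Lrrc32 and Nrp1 did, beside 2.31% of all genes.

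Several of these genes encode suppressive products. Entpd1, the ectonucleotidase CD39, had levels of 1.15 in P4, 1.87 in P3, -2.36 in P2 and -3.82 in P1, and P4 was 4.97 above P1 and 3.52 above P2 on the log2 scale. Il10, an inhibitory cytokine gene, stood at 0.55 in P4 and in P3 and was not well above background in P2 or P1, so that P4 was at least 25.8-fold above P1 and at least 24.3-fold above P2. Il2ra, the high-affinity interleukin-2 receptor chain, stood at 0.55 in P4, 0.57 in P3 and -2.48 in P2. In P1 it was not well above background, at -3.98, and P4 was 23.1-fold above that level. The P1 level was not raised, as it lay above the lowest signal called well above background there (-4.14). Its P3 spot lay among raised neighbours. The coinhibitory receptor genes Tigit and Ctla4 were higher in P4 than in P1 by 4.14 and 2.19. The costimulatory receptor gene Tnfrsf9 was higher by 3.80 against P1 and by 3.54 against P2.

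Itgae, the integrin CD103 that binds E-cadherin, kept the pattern of Gpr83, with levels of 4.06 in P4, 3.03 in P3, 0.62 in P2 and 4.05 in P1. Lower in P4 than in P3 were the cytokine signalling inhibitor gene Socs2 by -4.17, the actin capping gene Capg by -2.22 and Ebi3, an interleukin-35 subunit gene that was not well above background in P4, by a bound of -5.01. Ebi3 was also bounded at -3.57 for P4 minus P2, where its P2 spot lay among raised neighbours.

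Genes that regulate or partner Foxp3 passed 2-fold at shares below those over all genes, which are 7.2%, 8.24% and 13% for P4 against P1, P2 and P3, and with counts this small nothing is read from that. At 2-fold, P4 differed in 1 of 23 measured genes from P1 (higher), in 1 from P2 (lower) and in 2 from P3 (higher). These were the nuclear receptor Nr4a2, higher in P4 than in P1 by 1.80, Nfatc2 at -1.01 against P2, and the chromatin organiser Satb1 and the repressor Bach2, higher in P4 than in P3 by 2.10 and 1.11. The list medians were -0.08 for P4 minus P1, 0.10 for P4 minus P2 and 0.24 for P4 minus P3.

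The Ikaros relatives of Ikzf2 and Ikzf4 were listed together with corepressors of the family. Of this list, 1 of 10 genes passed 2-fold against P1, 0 of 10 against P2 and 1 of 11 against P3. These counts lie near the shares over all genes, 7.2%, 8.24% and 13%, and nothing is read from them. Of 10 measured genes of the family and its corepressors, only Ikzf3 (Aiolos) was past 2-fold in P4 minus P1, at 1.52, with levels of 3.98 in P4, 4.83 in P3, 3.15 in P2 and 2.46 in P1. Its other probes gave 0.73 and 0.86, short of 2-fold. Ikzf1 (Ikaros) differed by 0.06 from P1, 0.18 from P2 and 0.51 from P3. Against P3 the corepressor Ctbp2, not well above background in P4, was lower by a bound of -2.35.

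Of genes around latent TGF-beta, which GARP holds, 0 of 15 measured passed 2-fold against P1, 3 of 15 against P2 and 1 of 16 against P3, beside 7.2%, 8.24% and 13% of all genes. Against P2, the coreceptor gene Tgfbr3 and the integrin chain Itgav were higher by 2.30 and 1.02 and the signal transducer Smad3 was at -1.13. Against P3, Tgfbr3 was the 1 gene of 16 past 2-fold, at 1.19. Tgfb1 differed by 0.34 from P1, 0.35 from P2 and 0.06 from P3. Itgb8, part of an integrin that frees TGF-beta from GARP, was not well above background on any array.

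Among neuropilin and semaphorin genes, Sema7a, a membrane-bound semaphorin gene, had the largest difference in P4 minus P1. Its levels were 2.02 in P4, 2.02 in P3, -1.55 in P2 and -3.14 in P1, and P4 was 5.16 above P1 and 3.58 above P2. Of 15 measured genes in P4 minus P1, 3 were at least 2-fold higher and 2 lower, beside 5.43% and 1.77% of all measured genes. The 2 lower were the vascular growth factor receptor gene Flt1 at -1.63 and Plxna2 at a bound of -3.44, whose P1 spot lay among raised neighbours. Of 14 measured in P4 minus P2, 4 were higher and 0 lower, beside 4.78% and 3.45%. Among the 4 were the plexin genes Plxnd1 and Plxnb1 with bounds of 2.17 and 1.70 and Plxna3 at 1.48. Against P3, 1 of 14 was higher and 4 were lower, beside 3.98% and 9.06%. The lower ones were led by Plxnb2 at -3.64 and Plxnc1 at -2.21. Of the genes for Gpr83 ligands, Pcsk1n was on the array and was within 2-fold in every pair with P4.

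**Figure D5:**
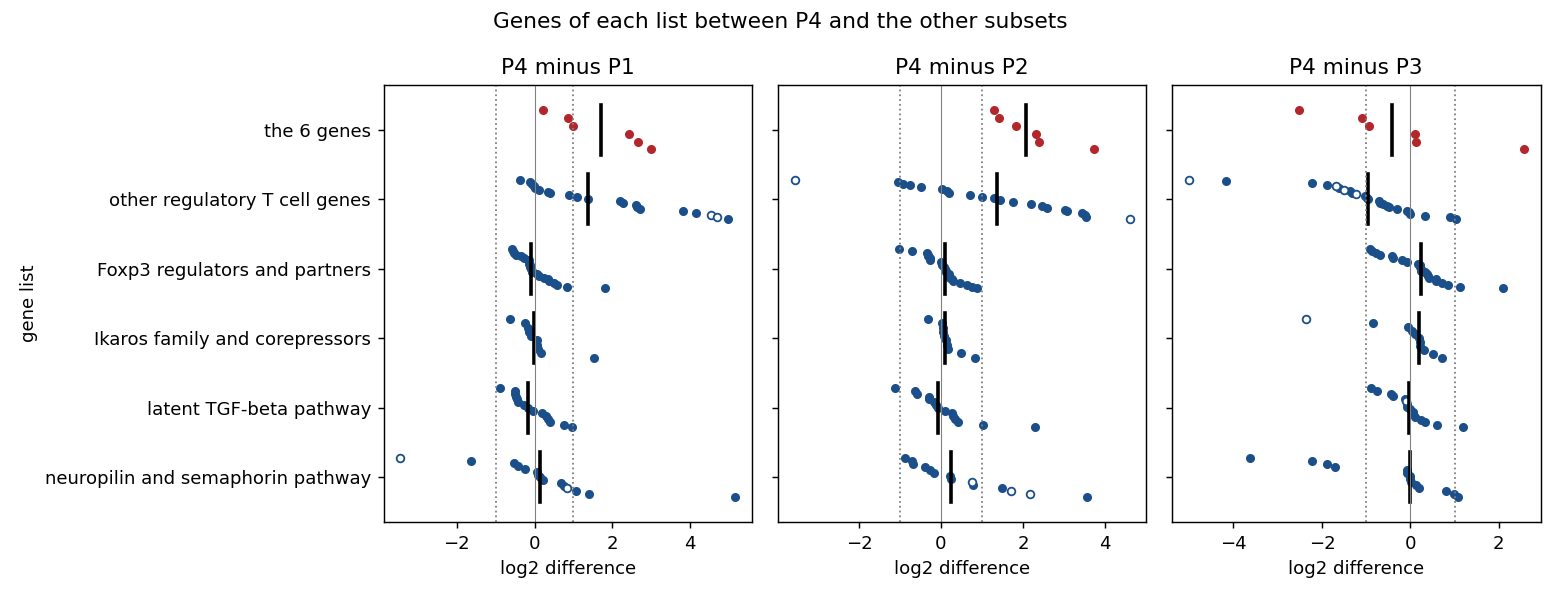
Log2 difference of each measured gene in P4 minus P1, P4 minus P2 and P4 minus P3, by list, with the list median as a bar, bounds open and dotted lines at 2-fold. Medians of the 6 genes and of the other regulatory T cell genes were 1.71 and 1.37 against P1, and those of the other 4 lists shown lay between -0.17 and 0.13 against P1.

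For each of the 6 genes, the genes with the most similar course over the 4 arrays were taken from 2167 genes well above background on all 4 arrays, with levels spanning at least 1. Likeness was the root mean square gap between levels after each gene's own mean was subtracted, and with 4 points many genes come close. For Foxp3 these were Grk5, a receptor kinase gene (0.0846), Tox, a factor known from T cell development and exhaustion (0.0946), Syt11 (0.116) and Tnfsf9, the ligand of Tnfrsf9 (0.120). Tox stood at 3.45 in P4, 4.35 in P3, 1.90 in P2 and 2.34 in P1. For Ikzf2 they were Spaca9 (0.141), Arap3 (0.163), the immunoglobulin family receptor gene Cd101 (0.169) and Zfp612 (0.185). For Ikzf4 they were Basp1 (0.163), Cep170b (0.194), Prdm16 (0.199) and the helix-loop-helix factor Id2 (0.216).

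For Lrrc32 the closest gene was Fgl2, a secreted suppressive product of regulatory T cells (0.103), with levels of -0.67 in P4, 0.66 in P3, -2.87 in P2 and -3.38 in P1, where its P1 spot lay among raised neighbours. It came before Pbx3 (0.173), Mdfic (0.184) and the inflammatory caspase gene Casp1 (0.191). For Nrp1 they were Themis2 (0.251), Casp4 (0.337), the linker histone gene H1f5 (0.367) and Niban2 (0.374). For Gpr83 they were the urokinase receptor gene Plaur (0.350), the interferon-gamma receptor gene Ifngr2 (0.367), Tmie (0.400) and Xkrx (0.477). Of the 6 genes themselves, Nrp1 and Lrrc32 were the closest pair, with a gap of 0.508, and Nrp1 and Gpr83 the most distant, with 2.68.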

How the data were processed

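Total RNA was reverse transcribed with random primers and labelled with Cy3 for 4 single-colour arrays, per the labels' protocols. The authors obtained spot intensities with Agilent Feature Extraction 11.0.1.1, per the file headers. The deposited processed signal intensity is background-subtracted and not scaled between arrays, and deposited flags mark spots well above background, saturated or outlying. The authors' deposited table holds log2 values of 26188 probes, quantile normalized and not centred as judged from the values, with a median of 8.85 per column and sorted values equal within 0.000619. Its values correlated with the log2 processed signal at 0.999 or more, so scale and direction were settled, and the sources used here do not name the tool.

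Outlier spots were left out (122 to 152 per array), 0 spots were saturated, and log2 processed signal minus the 75th percentile over probes was averaged over spots of a probe. Accessions named 32988 of 56597 probes with RefSeq gene symbols of GRCm38.p6. A gene was shown by its probe with the highest mean level. Where a probe was not well above background and lay under the dimmest probe that was, it took that probe's level, and the difference is written as "at least". A difference is called a bound where only 1 of both arrays was well above background, also where the dimmer level was not raised. For each pair, genes well above background on at least 1 of both arrays were counted. A gene above background on only 1 array of a pair could thus be counted past 2-fold toward that array alone. This holds for the lists and for the shares over all genes. A spot had raised neighbours where at least 2 spots (4 on the P3 array) within 32 position units were 2-fold above every other array, a rule taken from earlier work on these data. The number of arrays limits the precision.

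The 6 genes and all gene lists were chosen with earlier results of these data known. The genes named were the 6 with every probe, up to 4 genes of each other list with the largest differences from P1 and from P2 and up to 3 from P3 among those past 2-fold, a few lineage and family genes whatever their values, and the 4 genes most like each of the 6. Other genes named in the counts of a list or pattern were chosen after their values were seen. The alternatives were scaling to the median of shared probes, quantile normalization, normexp with offset 50 (run on median signals in place of mean signals), both arrays above background, neither filter nor floor, the authors' values, outlier spots kept, the mean over all probes of a gene and a 4-fold threshold. Counting was tested on simulated data. Python 3.11.15, numpy 2.4.6, pandas 2.3.3, scipy 1.17.1, matplotlib 3.10.9, R 4.3.3 and limma 3.58.1 were used.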

Additional observations from a re-analysis of the deposited data

Results flagged for a closer look

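The difference between CD44high and CD44low cells pointed in opposite directions in the 2 CD62L classes for Ikzf2 and Foxp3. For Ikzf2 it was -0.11 among CD62Llow cells (P3 minus P4) and 1.25 among CD62Lhigh cells (P2 minus P1) on the log2 scale. For Foxp3 it was 0.94 among CD62Llow cells and -0.30 among CD62Lhigh cells. The -0.11 and the -0.30 lie within the spot noise at their levels, 0.18 and 0.62. With 1 array per subset the difference between the classes was not tested.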

How the results depend on the processing

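Of 36 differences, from 6 genes in 6 pairs of subsets, 26 were at least 2-fold, and all 26 kept their direction under the 8 other settings of processing. Of these settings, both arrays above background and neither filter nor floor had a largest shift of 0. The brightest probe of each gene was well above background on all 4 arrays. Outlier spots kept had a largest shift of 0.00131, as none of those probes' spots was an outlier. These settings could therefore not move the count. All 26 stayed past 2-fold under 6 of the 8 settings, these included. Under normexp 23 did, where 17 of 36 differences moved by more than the spot noise and the largest shift was 1.47. The losses were Foxp3 (0.73) in P4 minus P2, Lrrc32 (-0.92) in P4 minus P3 and Gpr83 (0.72) in P3 minus P2. With the mean over a gene's probes 24 stayed past 2-fold, losing Ikzf4 in P4 minus P2 (0.996) and in P2 minus P1 (-0.67). That mean includes probes not well above background. The 2 brighter Ikzf4 probes gave 2.33 and 2.15 for P4 minus P2, and -1.48 and -1.17 for P2 minus P1. Foxp3 in P4 minus P1 passed 2-fold when scaled to the median (1.01) and in the authors' deposited table (1.04), as did Foxp3 in P4 minus P3 in that table (-1.05). At a 4-fold threshold, 3 of the 6 genes remained higher in P4 than in P2, and 1 of the 6 remained apart in P2 minus P1. The share of all genes past 2-fold ranged over the settings from 3.57% to 9.37% for P4 minus P1, 4.28% to 9.83% for P4 minus P2, 7.33% to 14.1% for P4 minus P3, 12.5% to 19.8% for P3 minus P1, 10.04% to 16.8% for P3 minus P2 and 3.90% to 9.19% for P2 minus P1, where the reported shares were 7.2%, 8.24%, 13%, 19.5%, 16.2% and 7.28%. The cause of these shifts was not tested. No paired analysis was possible because each subset has 1 array. By the brightest probes, Foxp3 in P2 (-3.27) and Lrrc32 in P1 (-3.49) lie closest to background, below -3, where spot noise is widest.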
